A study of Caenorhabditis elegans with 2 samples.

Results

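The HSP70 and HSP110 chaperone genes of the nematode Caenorhabditis elegans were examined for promoter binding of the TATA-binding protein TBP-1. They were chosen by symbol, as hsp-1, hsp-3, hsp-4, hsp-6, hsp-110, hsp-70, F44E5.4 and F44E5.5, and all 8 were found among the 19973 protein-coding genes of the WBcel235 (ce11) annotation. The rule uses no measured value. Chromatin immunoprecipitation followed by sequencing (ChIP-seq) was carried out on strain OP746, which carries unc-119(tm4063) and the integrated transgene wgIs746 [tbp-1::TY1 EGFP 3xFLAG + unc-119(+)]. The transgene supplies TBP-1 with a GFP-FLAG tag at its C terminus together with a working copy of unc-119, while the sequences that drive it are not stated in the labels. Mixed-sex worms were starved as L1 larvae to synchronise them, grown to young adults of 65 hours and used whole, and sonicated chromatin was precipitated with anti-GFP. There was 1 group of 2 biological replicates, both of this strain and age, and the labels name no heat or other stress treatment. The controls against which peaks were called were not analysed here. In whole animals, strong binding in a few cells and weak binding in many cells cannot be told apart, and the sexes were pooled.

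HSP70 proteins are chaperones that hold unfolded stretches of other proteins through cycles of ATP binding and hydrolysis. J proteins deliver clients to them and start hydrolysis, and nucleotide exchange factors, among them the HSP70 relatives of the HSP110 family, release ADP and let the cycle restart. Some family genes are transcribed in unstressed animals, while others are switched on by heat through the transcription factor HSF-1 or by misfolded proteins in the endoplasmic reticulum (ER). The grouping used below follows general knowledge and was not measured in these libraries. F44E5.4, F44E5.5 and hsp-70 are grouped as heat-inducible, hsp-4 as induced by ER stress, and hsp-1, hsp-110, hsp-3 and hsp-6 as constitutive. Constitutive here means transcribed in unstressed animals and does not exclude that stress raises a gene further.

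A reproducible TBP-1 summit was found within 500 bp of an annotated 5′ end in 6 of the 8 chaperone genes, against 10.2% of all protein-coding genes. The 6 were 2 of the 3 heat-inducible genes, F44E5.4 and F44E5.5, and 4 of the 4 constitutive genes. The ER stress gene hsp-4 and the heat-inducible hsp-70 had none. The 6 genes rested on 5 peaks, because F44E5.4 and F44E5.5 share one. The count describes these genes beside the background share and carries no test, since the genes were picked with earlier results of these libraries known.

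**Figure D1:**
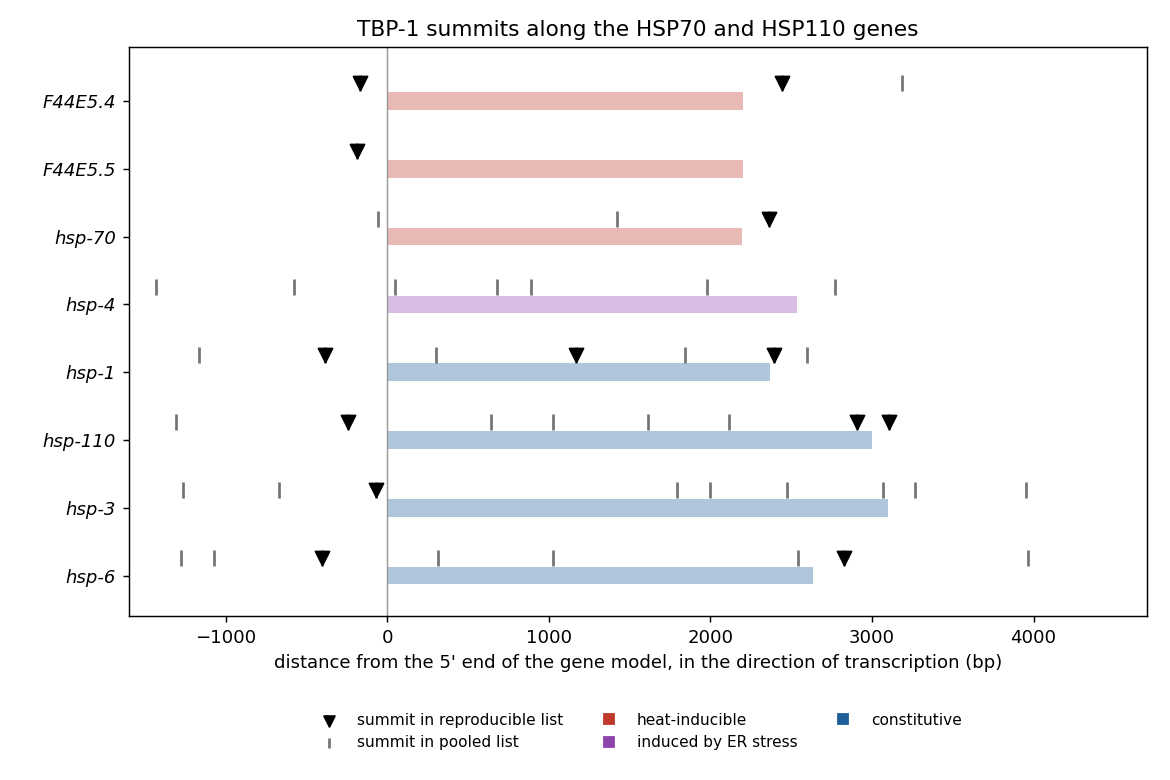
TBP-1 summits along each gene, with distance in bp from the outermost 5′ end on the x axis and bars for the gene models. Triangles are summits from the list of 3862 reproducible peaks, and ticks are all summits of the pooled list. Only summits within 1500 bp of each gene are drawn. A triangle stands within 500 bp upstream of 6 genes, but not of hsp-70 or hsp-4, and F44E5.4 and F44E5.5 have no summit over their gene bodies.

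The heat-inducible pair F44E5.4 and F44E5.5 encodes cytosolic HSP70 proteins. F44E5.4 (WBGene00009691, chromosome II 11757107 to 11759311, minus strand, 2 exons) and F44E5.5 (WBGene00009692, chromosome II 11759662 to 11761861, plus strand, 2 exons) stand head to head with 350 bases between them. Their coding sequences, 1935 bp each, were 100% identical. The shared TBP-1 peak, chrII:11759353-11759621, lay wholly between the genes. Its summit at position 11759478 was 8.5 bp from the midpoint of the 350 bases. The sequence between the genes is shown because it holds this summit, at base 144 of the printed run, and both TATA motifs. It was read from the plus strand of WBcel235 (RefSeq), chrII:11759335-11759634, and the capitals mark TATAAA on either strand:
F44E5.4/F44E5.5: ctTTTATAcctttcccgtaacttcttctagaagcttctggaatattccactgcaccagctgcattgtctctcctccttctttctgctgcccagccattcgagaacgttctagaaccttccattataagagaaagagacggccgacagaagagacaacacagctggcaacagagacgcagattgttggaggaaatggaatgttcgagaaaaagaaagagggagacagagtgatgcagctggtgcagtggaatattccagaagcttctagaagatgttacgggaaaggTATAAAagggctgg

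Each gene of the pair had its own TATAAA, beginning at −31 bp from the 5′ end of F44E5.4 and at −41 bp from that of F44E5.5. The first bases of these motifs lay 136 and 143 bp from the summit, so the summit stood between both motifs and over neither. Parts of the sequences next to the pair were near copies of each other in opposite orientation, a feature looked for after the sequence had been seen. Over 87 ungapped bases, from −87 to −1 of F44E5.4 and from −97 to −11 of F44E5.5, 86 bases (98.9%) were identical. This was the best-matching stretch, and over the whole 175 bases on each side of the midpoint a gapped alignment had 133 of 197 columns identical (67.5%). Both arms are printed, each 5′ to 3′ towards its gene (F44E5.4 chrII:11759331-11759401, minus strand; F44E5.5 chrII:11759562-11759632, plus strand), since they carry the paired heat shock units GAANNTTC and TTCNNGAA. The capitals mark a run in which these units alternate and overlap by 3 bases:
F44E5.4: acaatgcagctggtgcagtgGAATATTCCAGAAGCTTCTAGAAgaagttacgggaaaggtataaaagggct
F44E5.5: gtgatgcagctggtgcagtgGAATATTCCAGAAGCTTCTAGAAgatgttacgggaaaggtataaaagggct

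The heat shock units were more numerous here than in nearly all promoters. In the 300 bp before its 5′ end F44E5.4 held 7 matches of GAANNTTC and 7 of TTCNNGAA, and F44E5.5 held 7 and 6. As many of the first motif were found in 0.025% of the 19973 protein-coding promoters for either gene. As many of the second were found in 0.02% for F44E5.4 and 0.035% for F44E5.5. Since the genes are 350 bases apart, most of these matches are the same bases counted for both. The shares include the pair's own promoters wherever these hold as many matches.

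The pair's peak ranked 966 of 30000 by signal in the pooled list, 993 in replicate 1 and 999 in replicate 2. The signal value is the authors' own peak height on an unstated scale, so only its rank within each list was used. The summit lay at −167 bp from F44E5.4 and −184 bp from F44E5.5 in the pooled list, where a negative offset is upstream. Replicate 1 gave −167 and −184 bp, and replicate 2 gave −169 and −182 bp. The replicate summits were thus 2 bp apart, both between the genes, and no other annotated 5′ end lay within 500 bp. One summit cannot be divided between a pair of promoters, so the peak counts for both genes without showing binding at each.

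The bodies of F44E5.4 and F44E5.5 held 0 summits in all 4 peak lists. For the remaining 6 genes the pooled list placed between 1 (hsp-70) and 5 (hsp-110) summits inside the gene. Because the pair is near-identical, the share of 32-base words found once in the genome was counted after seeing this. It was 1.84% in the body of F44E5.4 (40 of 2174 words) and 1.94% in that of F44E5.5 (42 of 2169). In the other bodies it was at least 97.1%, the value for hsp-1. Under the shared peak 216 of 238 words (90.8%) were unique, against 100% under the peaks described below for the other 6 genes. For hsp-4 that peak lies inside the gene. The labels state neither the read length nor the treatment of reads with several matches, and their part in the empty gene bodies was not tested.

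Among the constitutive genes, hsp-3 had the summit nearest to its own 5′ end. It encodes one of the worm's BiP proteins, the HSP70 of the ER lumen, and lies on chromosome X from 6089028 to 6092124 on the minus strand (WBGene00002007, 5 exons). Its peak, chrX:6092066-6092310, ranked 1002 in the pooled list, 1023 in replicate 1 and 1056 in replicate 2. The summit lay at −71 bp in the pooled list and in replicate 1, and at −56 bp in replicate 2. It was the single occupied gene whose summit had no other annotated 5′ end within 500 bp. The nearest upstream gene, C15H9.5, runs away from hsp-3 beyond 1175 bases. The sequence before hsp-3, chrX:6092125-6092324 on the minus strand, is shown because it is a promoter with one gene and one summit. The summit is base 130 and the capitals mark TATAAA:
hsp-3: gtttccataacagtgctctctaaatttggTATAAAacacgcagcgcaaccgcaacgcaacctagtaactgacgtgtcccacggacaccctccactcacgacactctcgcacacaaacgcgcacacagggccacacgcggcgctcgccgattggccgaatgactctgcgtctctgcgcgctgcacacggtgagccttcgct

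That TATAAA began at −171 bp, 100 bp upstream of the summit, so the summit lay between the motif and the 5′ end. The 300 bp before hsp-3 held neither heat shock unit. A further 2 5′ ends are annotated for shorter hsp-3 transcripts, at positions 6091785 and 6090471. The outer one had the same summit at −410 bp in the pooled list. The inner one had no reproducible summit in reach, and weaker summits differed between replicates. Replicate 2 placed summits at −36 bp with rank 8394 and at +173 bp with rank 3170. The nearest in replicate 1 was at −709 bp with rank 29560, and the pooled list gave +142 bp with rank 21839 and +347 bp with rank 15550.

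The constitutive gene hsp-1, which encodes the cytosolic HSC70, had the strongest peak at a 5′ end among the 8 genes. It occupies chromosome IV from 17278959 to 17281330 on the plus strand (WBGene00002005, 4 exons). The peak, chrIV:17278290-17278759, ranked 744 in the pooled list, 760 in replicate 1 and 743 in replicate 2. Its summit was far from the annotated 5′ end, at −386 bp in the pooled list and replicate 1 and at −388 bp in replicate 2. A noncoding RNA gene of 90 bp on the same strand, F26D10.23, had the nearer 5′ end, 160 bp upstream of the summit. The nearest summit to hsp-1 itself was a weaker one inside the gene in 2 of the lists, at +299 bp with rank 9122 in the pooled list and at +265 bp with rank 5358 in replicate 1.

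The gene hsp-110 encodes the worm's HSP110, which serves HSP70 as an exchange factor. It lies on chromosome III from 8443910 to 8446909 on the minus strand (WBGene00016250, 6 exons). Its peak, chrIII:8447008-8447276, ranked 780 in the pooled list, 779 in replicate 1 and 804 in replicate 2. The summit lay at −241, −240 and −256 bp in the same order of lists. The 443 bases between hsp-110 and the divergent gene rpn-3, a subunit of the proteasome, held this one reproducible summit, which was nearer to rpn-3 (−203 bp) than to hsp-110. Nearest of all was the noncoding RNA gene C30C11.14, 53 bp long, at −55 bp. The peak therefore cannot be given to hsp-110 alone.

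The bases around the hsp-1 and hsp-110 summits are shown because both of these constitutive genes carry a heat shock unit within 50 bp of the summit. The summit is base 51 of each run, read on the gene's strand (chrIV:17278523-17278622, plus; chrIII:8447100-8447200, minus). The capitals mark GAANNTTC in hsp-1, and TTCNNGAA overlapping GAANNTTC in hsp-110:
hsp-1: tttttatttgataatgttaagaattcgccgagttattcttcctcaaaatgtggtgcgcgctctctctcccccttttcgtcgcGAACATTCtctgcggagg
hsp-110: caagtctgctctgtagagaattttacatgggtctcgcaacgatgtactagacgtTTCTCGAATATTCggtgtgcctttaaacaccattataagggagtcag

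The hsp-110 units began 4 and 9 bp downstream of the summit. A second overlapping pair stood nearer the gene, with offsets −115 and −110 bp. At least 2 matches of GAANNTTC, as in hsp-110, were found in 2.28% of protein-coding promoters, and at least 2 of TTCNNGAA in 1.91%. The hsp-110 TATAAA began at −86 bp, which is 155 bp downstream of the summit.

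The mitochondrial HSP70 gene hsp-6 had the weakest of the 5 reproducible peaks. It spans chromosome V from 4824124 to 4826760 on the minus strand (WBGene00002010, 4 exons). The peak at chrV:4827079-4827260 ranked 1211 in the pooled list, 1208 in replicate 1 and 1378 in replicate 2. The summit lay at −401, −404 and −401 bp in those lists. Weaker summits inside the gene were nearer to its 5′ end, at +314 bp with rank 12508 in the pooled list. Replicate 1 had one at +294 bp with rank 29112, and replicate 2 at +302 bp with rank 8438. The 5′ ends of 3 other genes were in reach of the upstream summit, and all were nearer to it than that of hsp-6. They belonged to C37H5.15 (a noncoding RNA on the opposite strand, +83 bp), C37H5.16 (a noncoding RNA on the hsp-6 strand, +103 bp) and the divergent protein-coding gene C37H5.5 (−199 bp). Neither TATAAA nor a whole heat shock unit was found in the 300 bp before hsp-6. An overlapping TTCNNGAA and GAANNTTC lay just beyond, beginning at −307 and −302 bp, which is 94 and 99 bp downstream of the summit, so that it ran over the edge of both search windows. The bases from the hsp-6 summit to this match are shown for that reason (chrV:4827052-4827211, minus strand), with the summit at base 51 and the overlapping units in capitals:
hsp-6: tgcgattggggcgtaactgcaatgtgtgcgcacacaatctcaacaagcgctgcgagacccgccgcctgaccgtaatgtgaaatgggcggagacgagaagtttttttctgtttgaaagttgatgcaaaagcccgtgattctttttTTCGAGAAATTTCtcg

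Each of the 3 constitutive genes with a distant summit, hsp-6, hsp-1 and hsp-110, has AG directly before its annotated 5′ end, which the pair and hsp-3 do not. In C. elegans many transcripts lose their original start when a spliced leader is joined to a 3′ splice site, and such sites end in AG. The last 30 bases before the outermost 5′ end are shown for 7 of the 8 genes for this reason, on the gene's strand, with a final AG in capitals. The gene not shown, hsp-70, has no AG there:
F44E5.4: ataaaagggctgggattcgggtagtatgtc
F44E5.5: tgggattcgggtagtatgtcaccctcagaa
hsp-4: gcggacgttcacattcagttctttgttttc
hsp-1: atttcttgatttttaaattattttttacAG
hsp-110: aactgtctaaacttttatctttaatttcAG
hsp-3: tctgcgcgctgcacacggtgagccttcgct
hsp-6: gttttcgttcatgatgcaattttctttcAG

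The AG was looked for after the offsets were known, so it is a description. Among all protein-coding genes, 5510 (27.6%) had AG before the outermost 5′ end and 831 of them (15.1%) had a reproducible summit within 500 bp of it. Their median summit offset was −226 bp, with an interquartile range from −317 to −150 bp. Of the 14463 other genes, 1067 (7.38%) had one, at a median of −125 bp and an interquartile range from −254 to −23.5 bp. The offsets of hsp-6 (−401 bp) and hsp-1 (−386 bp) were outside the interquartile range of the AG genes, while hsp-110 (−241 bp), F44E5.4, F44E5.5 and hsp-3 were within that of their class. Whether any of the 3 genes is trans-spliced was not tested.

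**Figure D2:**
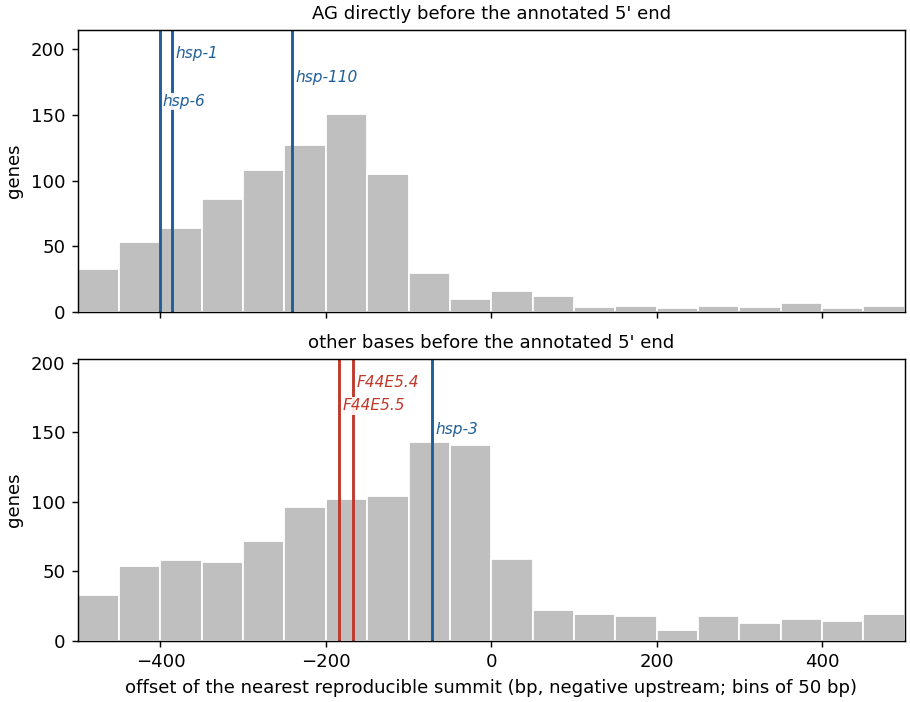
Offsets of the nearest reproducible summit from the annotated 5′ end, in bins of 50 bp, for protein-coding genes with AG before that end (top) and other genes (bottom). Bars count genes, and vertical lines mark chaperone genes at −401, −386 and −241 bp (top) and at −184, −167 and −71 bp (bottom).

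The third heat-inducible gene, hsp-70, had a summit close to its 5′ end that was reproducible in place but not in rank. It encodes a cytosolic HSP70 and lies on chromosome I from 9320325 to 9322519 on the minus strand (WBGene00002026, 3 exons), inside the gene uggt-2, which runs the other way. The peak from 9322412 to 9322741 ranked 3973 in the pooled list, so 110 peaks separated it from the last of the 3862 reproducible peaks. It ranked 3330 in replicate 1 and 8352 in replicate 2. Its summit lay at −58 bp in the pooled list, −61 bp in replicate 1 and −63 bp in replicate 2, and the replicate summits were 2 bp apart. Its deposited −log10 q was at the list's maximum in the pooled list (3.96) and in replicate 1 (4.01), and stood at 1.11 in replicate 2. With the 3862 strongest peaks of replicate 1 alone, hsp-70 counted as occupied and 7 of the 8 genes did, against 10.1% of protein-coding genes. With those of replicate 2 alone it did not, and 6 genes did, against 9.60%.

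Around the hsp-70 summit the motifs were close together. TATAAA began 13 bp downstream of the summit, at −45 bp from the 5′ end. A GAANNTTC and a TTCNNGAA began 15 and 10 bp upstream of it, and a further GAANNTTC began at −180 bp. The coding sequence of hsp-70 was 80.7% identical to that of F44E5.4 and F44E5.5, and 66.6% identical to that of hsp-1. No other annotated 5′ end lay within 500 bp of the summit, and the upstream neighbour cbl-1 began 5337 bases away. The nearest reproducible summit was at +2364 bp, beyond the 3′ end of the gene.

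For hsp-4, the ER stress-inducible BiP gene, no list gave a peak ranked above 12208 within 500 bp of the outermost 5′ end. The gene runs from 7350112 to 7352645 on the minus strand of chromosome II (WBGene00002008, 7 exons). At the outermost 5′ end the nearest summits were at +51 bp with rank 12208 in the pooled list and at +47 bp with rank 14754 in replicate 1. Replicate 2 had its nearest at −601 bp, with rank 3704. The strongest summit within 500 bp of any annotated end lay inside the gene, from position 7351593 to 7351922, upstream of an internal end at 7351329. It ranked 4935 in the pooled list, 6519 in replicate 1 and 6270 in replicate 2, at −429, −436 and −471 bp from that internal end. The nearest reproducible summit was 13613 bp from the closest hsp-4 end, with rank 2781. Its paralog hsp-3, 77.9% identical in coding sequence, had rank 1002 at −71 bp. In the 300 bp before hsp-4 there was 1 match of each heat shock unit, no TATAAA, and no exact match of TGACGTGG, an element of the type bound by XBP-1.

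Set side by side, the heat-inducible peaks did not fall together in rank. The pair's peak (966) stood among the constitutive ones, after hsp-1 (744) and hsp-110 (780) and before hsp-3 (1002) and hsp-6 (1211). The hsp-70 peak (3973) and the summit inside hsp-4 (4935) followed them all. The first 5 kept this order in the pooled list and in both replicates. The gap between hsp-1 and hsp-110 was 19 ranks in replicate 1 and 61 in replicate 2, while hsp-1 differed by 17 ranks and hsp-110 by 25 between replicates. The gap between the pair and hsp-3 was 30 and 57 ranks, against a difference of 33 ranks for hsp-3 between replicates. For hsp-70 that difference was 5022 ranks, and hsp-70 and the summit inside hsp-4 changed places between replicates. This was no exchange between promoter peaks. At the outermost hsp-4 end the rank was 12208 in the pooled list and 14754 in replicate 1. Replicate 2 had no summit within 500 bp of that end. In replicate 1, therefore, hsp-1 and hsp-110 were no further apart than hsp-110 was from itself in replicate 2, and the same held for the pair and hsp-3.

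**Figure D3:**
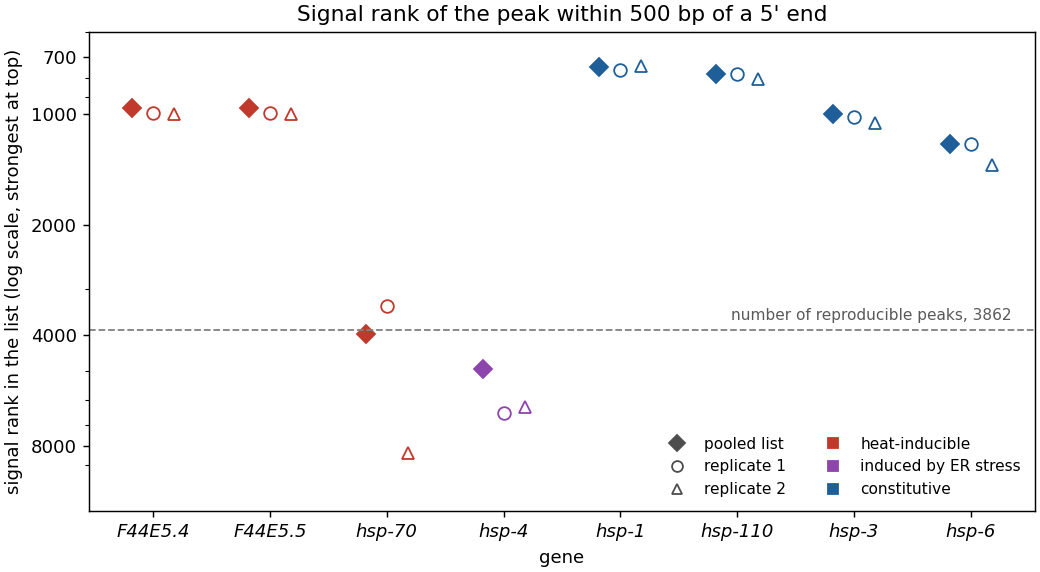
Signal rank of the peak within 500 bp of a 5′ end for each gene, on a log axis with the strongest at the top, in the pooled list and both replicates. The pair at 966 to 999 lies among the constitutive genes at 743 to 1378. The hsp-70 peak (3330 to 8352) and the summit inside hsp-4 (4935 to 6519) lie around or under the dashed line at 3862.

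Against other peaks, the 5 reproducible chaperone peaks were in the upper part of the list. The pair's peak was at percentile 75 of the 3862 reproducible peaks by signal, hsp-1 at 80.7, hsp-110 at 79.8, hsp-3 at 74.1 and hsp-6 at 68.7. The reproducible list also holds peaks of noncoding genes. Among the 1737 with a protein-coding 5′ end in reach, a class that includes all 5, the pair stood at percentile 85.8, hsp-1 at 91.0, hsp-110 at 90.3, hsp-3 at 84.8 and hsp-6 at 78.5. Set against the 1342 peaks whose annotated 5′ ends in reach were all protein-coding, the same signals stood at 93.6, 98.1, 97.7, 92.7 and 85.8 in that order of genes. Of these 5 peaks 3, at hsp-1, hsp-110 and hsp-6, have a noncoding RNA end in reach and so are not among the 1342. The deposited q value could not order these peaks, since 4568 of the 30000 pooled peaks were tied at its limit.

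Summit positions repeated closely between the replicates. The gap was 2 bp for the pair, hsp-70 and hsp-1, 3 bp for hsp-6, 15 bp for hsp-3, 16 bp for hsp-110 and 35 bp for the internal hsp-4 summit. Among the 219 reproducible peaks at protein-coding ends ranked between hsp-1 and hsp-6, the median gap was 12 bp. The interquartile range ran from 5 to 22 bp. The hsp-70 and hsp-4 summits were weaker than all of these peaks, so the values are no background for them. The hsp-70 gap was as small as that of the pair although its ranks differed far more.

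**Figure D4:**
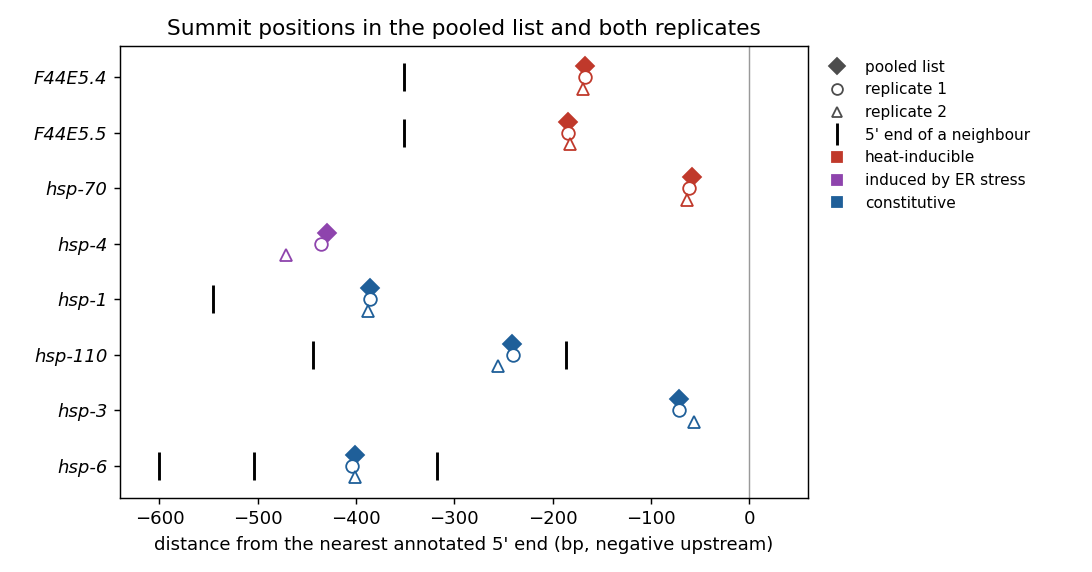
Summit offsets in bp from the nearest annotated 5′ end of each gene in the pooled list and both replicates, with black bars at the 5′ ends of neighbouring genes within 500 bp of the summit. The hsp-4 points are measured from an internal end. Gaps between replicates run from 2 to 35 bp, and neighbours' ends flank the summits of hsp-110 and hsp-6.

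How many of the genes counted as occupied depended on the distance allowed. Within 250 bp the count was 4 of 8, against 6.38% of protein-coding genes, and hsp-6 (−401 bp) and hsp-1 (−386 bp) left it. Those 4 were 2 of 3 heat-inducible and 2 of 4 constitutive genes. Widening to 1000 bp added none and left 6 of 8, against 13.5%. With the 1931 strongest reproducible peaks, the same 6 of 8 were occupied, against 4.56%. The 6 were also kept when the end of the gene model replaced all transcript ends (9.50% of protein-coding genes) and when the peak interval replaced the summit (11.4%).

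**Figure D5:**
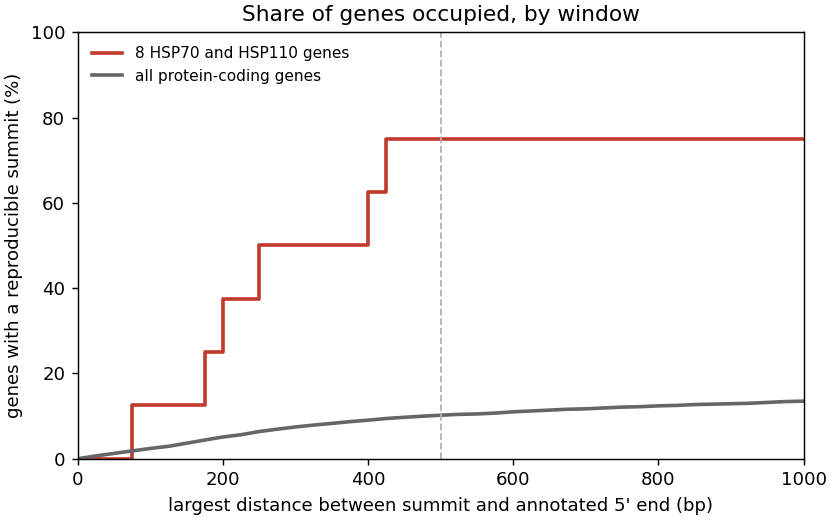
Share of genes with a reproducible summit by the largest distance allowed from an annotated 5′ end, for the 8 chaperone genes (red) and for all 19973 protein-coding genes (grey). The dashed line marks 500 bp, where the shares were 6 of 8 genes and 10.2%.

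Giving each summit to the nearest annotated 5′ end alone changed the count most. Only F44E5.4 and hsp-3 then kept a summit, 2 of 8, against 6.89% of protein-coding genes. F44E5.5 lost the shared peak to F44E5.4, and hsp-1, hsp-110 and hsp-6 lost theirs to noncoding RNA genes. In the opposite direction, the whole pooled list placed a summit within 500 bp of all 8 genes, where 35.8% of protein-coding genes had one. The whole lists of replicate 1 and replicate 2 also gave 8 of 8, against 36.9% and 36.5%. Those lists hold background peaks by design.

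The motifs were searched on both strands, and the heat shock units GAANNTTC and TTCNNGAA, each its own reverse complement, overlap each other. TATAAA was found in the 300 bp before 5 of the 8 genes, F44E5.4, F44E5.5, hsp-70, hsp-110 and hsp-3, against 39.6% of protein-coding promoters. TATATA was found in none (13.4%) and TGACGTGG in none (0.776%). Near variants of TGACGTGG were not searched. Each heat shock unit was found before 6 genes, all but hsp-3 and hsp-6 (whose units begin just beyond the window), against 19% of promoters for GAANNTTC and 18% for TTCNNGAA. Every heat shock unit counted before F44E5.5 is also one of those before F44E5.4, so the pair adds the same bases to this count for both genes. The genes grouped as heat-inducible were not alone in carrying the units, since hsp-4, hsp-1 and hsp-110 did as well. A match is a description of the sequence and not a binding site.

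Near the summits, within 100 bp to each side, the 8 genes are described by 7 summits, 5 of them reproducible. GAANNTTC was found at 3 of the 5 reproducible summits, those of the pair, hsp-1 and hsp-110, against 10.3% of all 3862 reproducible summits. It was also found at the weaker summits of hsp-70 and hsp-4. The hsp-4 match lay 69 bp from the summit inside the gene, at +956 bp from the outermost 5′ end, and not at the promoter. TTCNNGAA was found at 2 of the 5 reproducible summits, those of the pair and hsp-110, against 8.49%, and at the hsp-70 summit. TATAAA was found at 1 of the 5, that of hsp-3, against 16%, and at the hsp-70 summit. TATATA (5.41% of summits) and TGACGTGG (0.647%) had no match.

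TBP-1 summits also stood at the 3′ ends of several of these genes, which was looked at after the map had been seen. At the 3′ end, 5 of 8 genes had a reproducible summit within 500 bp, against 5.81% of protein-coding genes. They were 2 of the 3 heat-inducible genes, F44E5.4 and hsp-70, and 3 of the 4 constitutive ones, hsp-1, hsp-110 and hsp-6. Annotated 5′ ends accompanied most of them. The summit 238 bp beyond F44E5.4 (rank 1549) lay in the noncoding RNA gene F44E5.16, and that 170 bp beyond hsp-70 (rank 566) had 2 tRNA genes in reach, whose promoters use RNA polymerase III. Of the 2 summits of hsp-110, at +106 bp (rank 1117) and −94 bp (rank 2146), both were within reach of the downstream gene ufbp-1.

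No annotated 5′ end was in reach of the 3′ summits of hsp-1 and hsp-6. The hsp-1 summit lay 22 bp beyond the 3′ end, with rank 885 in the pooled list, 976 in replicate 1 and 798 in replicate 2. That is close to the rank of 744 at the 5′ side of the same gene. The hsp-6 summit lay 191 bp beyond the 3′ end and was far weaker, with ranks 3734, 3198 and 3957. One further reproducible summit stood inside hsp-1, at +84 bp of the intronic snoRNA gene F26D10.24, with rank 2816 in the pooled list. Replicate 1 had it at +87 bp with rank 1888, and replicate 2 at +96 bp with rank 4313. A second summit of replicate 2 nearby, at −196 bp from the same snoRNA gene, was stronger, with rank 2765.

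Of the other genes of the HSP70 system 21 of the 56 found were occupied (37.5%), beside the background of 10.2%. They comprise HSP70-like genes, J proteins, exchange factors and adaptors, the HSP90 system, hsp-60 and stress regulators. Among the 29 J proteins 10 had a summit (34.5%). The strongest was dnj-13, a cytosolic HSP40, with rank 874 and offset −218 bp. For 5 of the 10 another gene's 5′ end was nearer to the summit, F54D5.22 for dnj-13, nhr-47 for dnj-19, DL2.1 for dnj-14, F38A5.2 for dnj-11 and natc-1 for dnj-22. The others in order of rank were dnj-9 (930), dnj-19 (996), dnj-14 (1380), dnj-28 (1842), dnj-12 (1888), dnj-29 (1921), dnj-11 (1926), dnj-22 (2238) and dnj-10 (3475). Their summits all lay upstream, between −77 bp (dnj-12) and −381 bp (dnj-19).

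Beside the background of 10.2% of protein-coding genes, 3 of 4 exchange factors and adaptors were occupied. They were bag-1 (rank 935, −192 bp), a BAG-domain exchange factor, the mitochondrial GrpE homologue C34C12.8 (rank 959, −150 bp) and sti-1 (rank 1688, −52 bp), which links HSP70 to HSP90. The ubiquitin ligase gene chn-1 was not. The ranks of bag-1 and C34C12.8 were close to that of the heat-inducible pair (966), and that of sti-1 was weaker. In the HSP90 system 3 of 9 were occupied, hsp-90 (rank 891, −373 bp), the ER-resident enpl-1 (rank 1305, −55 bp) and the co-chaperone gene fkb-6 (rank 1565, −447 bp), and for hsp-90 and fkb-6 another gene's 5′ end was nearer. The mitochondrial chaperonin gene hsp-60 had no reproducible summit, 0 of 1. Of 4 further HSP70-like genes 1 had a summit, T14G8.3 (rank 3196, −378 bp).

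Among the stress regulators 4 of 9 were occupied, beside the same background of 10.2%. They were xbp-1 (rank 1358, −31 bp) and atf-6 (rank 2197, −324 bp), transcription factors of the ER stress response, hsb-1 (rank 2524, −246 bp), which encodes an inhibitor of HSF-1, and ubl-5 (rank 2607, −403 bp) of the mitochondrial stress response. The gene of the heat shock factor itself, hsf-1, had no reproducible summit within 500 bp. Its nearest was at −2906 bp with rank 3481, and the pooled list had a weaker one at −376 bp with rank 7221. In replicate 1 the nearest was at −416 bp with rank 8344, and in replicate 2 at −89 bp with rank 29480.

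The genes most like hsp-1 in rank were sought by the distance over log10 ranks in the pooled list and both replicates, which come from 2 samples, among peaks without noncoding ends in reach. They were cox-5A, a subunit of cytochrome c oxidase (ranks 745, 747 and 741, −288 bp), the protein-coding gene WBGene00012701 (755, 748 and 766, −22 bp) and rpl-12, a ribosomal protein gene (764, 783 and 754, −37 bp). Like hsp-1, all had summits upstream of their 5′ ends, but at −22 to −288 bp against −386 bp for hsp-1. The rpl-12 summit also has lin-54 in reach.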

How the data were processed

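Binding was measured in 2 replicates of 1 group. Per the deposited file descriptions, the authors called peaks on ce11 against a control alignment, once per replicate and once on both pooled (30000 peaks each, background included), and thresholded the pooled list by IDR, the irreproducible discovery rate, to 3862 reproducible peaks. No source used here gives the peak caller, aligner, read length or depth, so no interval is given. The deposited signal value is a score on an unstated scale and was used only to rank peaks. The deposited −log10 q value saturates. The deposited summit was the start plus the summit offset, converted to 1-based positions.

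Gene models were those of Ensembl release 115, and sequences came from the RefSeq copy of WBcel235, the same build. Occupied genes had a reproducible summit at most 500 bp from a transcript's 5′ end. Of several summits, the strongest in that window was described for hsp-4 and hsp-70. Motifs were searched exactly. The genes and lists were chosen with earlier results of these data known, so no test was run and no p-value is given. The genes named are the 8 chaperone genes, every gene sharing their summits, the upstream neighbours, all occupied genes of the HSP70 system, hsf-1, and the 3 genes closest to hsp-1 in ranks. Genes named at the 3′ ends were chosen after seeing the values. Alternatives were other windows, ends, assignments and peak lists. The scripts, tested on simulated peaks, used Python 3.11.15, numpy 2.4.6, pandas 2.3.3, biopython 1.88 and matplotlib 3.10.9.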

Additional observations from a re-analysis of the deposited data

How the results depend on the processing

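The count of occupied chaperone genes moved most when each summit was given to the nearest 5′ end alone. It fell to 2 of 8, against 6.89% of protein-coding genes, with 1 of 3 heat-inducible and 1 of 4 constitutive genes left. A 250 bp window left 2 of 4 constitutive genes and 13 of 56 other HSP70 system genes, against 6.38% of protein-coding genes. The whole pooled list, which holds background peaks by design, gave 48 of 56 of these system genes, against 35.8%. Leaving out replicate 1 or replicate 2 gave 6 and 7 of the 8 genes, against 9.60% and 10.1%, and hsp-70 was the gene that differed. TATAAA within 50 bp of the summit was found for 1 gene in place of 2. No paired analysis was possible because there is 1 group and no test. Depth is unknown, the signal scale is unstated, and 2 replicates cannot place a gene such as hsp-70, whose rank differed by 5022 between them. Reproducible means that a peak was kept when the authors thresholded the pooled list by IDR, so a gene just outside that threshold is not shown to lack TBP-1.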
